A study of Homo sapiens with 7 samples.

Results

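The loops described here had at least 1 anchor, the DNA segment at either end of a loop, with its midpoint between positions 161450000 and 161700000 of chromosome 1. This 250 kb window holds the low-affinity Fc gamma receptor genes FCGR2A, FCGR3A, FCGR2C, FCGR3B and FCGR2B and the heat shock gene HSPA6. Loops were chosen by position. The window itself, and a loop of about 81 kb within it, had been selected on the counts that this loop kept in cells without ZNF143, so those counts are given as a description and support nothing. The window held 42 listed loops of 135475 in all 7 lists, and these came to 30 distinct loops.

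The loops were measured by HiChIP, in which DNA ends lying close together in fixed nuclei are joined and the joined fragments are enriched with an antibody against a chromatin protein. All libraries came from HEC-1-B or lines derived from it. HEC-1-B is an established line grown from an adenocarcinoma of the human uterus. The chromatin was cut with MboI, an enzyme that cuts at GATC. There was 1 library per group, so no difference below has a replicate check, no p-value is given, and intervals cover counting error only. Wild-type cells gave 3 libraries, with antibodies against ZNF143, CTCF and RAD21. ZNF143KO cells gave 2, for CTCF and RAD21. CTCF-AID cells gave 2 for ZNF143, taken at 0 h and at 24 h of treatment with auxin (IAA), which makes cells that express TiR1 break down a protein carrying the AID tag. The labels do not say whether the ZNF143KO or CTCF-AID line was 1 clone, and loop lists cannot show whether either protein was gone or whether an Fc receptor gene was expressed.

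Fc gamma receptors bind the constant part of antibodies of the IgG class and are known from immune cells. FCGR2A and FCGR3A encode receptors that activate the cell, FCGR2B encodes the inhibitory receptor, and FCGR3B encodes a form held in the membrane by a lipid anchor and known from neutrophils. FCGR2C is listed by RefSeq as a transcribed pseudogene, although some people carry a form that makes a protein. HSPA6 encodes a member of the 70 kDa heat shock protein family that is strongly induced by heat. The locus is known to have arisen by duplication of a segment, so that genes of the first copy have closely similar partners in the second. CTCF binds DNA at defined motifs and stops cohesin, of which RAD21 is a subunit, and pairs of such sites form the ends of many loops. ZNF143 binds mainly at promoters.

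The order of the genes shows the repeat. In the RefSeq annotation (GRCh38.p14, used for names, order and the promoter windows below) HSPA6, RPS23P10 and FCGR3A followed FCGR2A, and HSPA7, RPS23P9 and FCGR3B followed FCGR2C, with FCGR2B last of the 9. HSPA7 is a pseudogene related to HSPA6, and RPS23P10 and RPS23P9 are pseudogenes of the same ribosomal protein gene. The sequence of the loop anchors themselves was not used here, because no genome of the build of the lists (hg19) was at hand. What could be compared were RefSeq promoter windows, from 250 bases before to 50 bases after a gene's start, of which 12 matched 5 of the 6 genes. FCGR2C was not compared. A pair of windows of FCGR3A (chr1:161549769-161550068, minus strand, GRCh38.p14) and FCGR3B (chr1:161631127-161631426, minus strand, GRCh38.p14) is shown because it aligned without a gap and so gives a single distance between the gene copies. Capitals mark the bases that differ.
FCGR3A: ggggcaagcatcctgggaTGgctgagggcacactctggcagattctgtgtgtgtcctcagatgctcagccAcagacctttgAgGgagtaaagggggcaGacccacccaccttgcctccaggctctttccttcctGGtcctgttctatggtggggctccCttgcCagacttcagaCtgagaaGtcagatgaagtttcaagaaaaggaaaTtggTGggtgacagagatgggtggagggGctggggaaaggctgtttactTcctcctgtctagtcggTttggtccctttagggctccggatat
FCGR3B: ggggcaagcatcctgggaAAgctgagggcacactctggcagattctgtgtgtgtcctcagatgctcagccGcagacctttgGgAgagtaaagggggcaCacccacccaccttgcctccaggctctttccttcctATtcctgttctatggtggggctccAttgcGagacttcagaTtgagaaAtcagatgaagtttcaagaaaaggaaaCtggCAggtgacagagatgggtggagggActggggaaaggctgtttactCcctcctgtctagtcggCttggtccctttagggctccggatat

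The pair aligned over 300 bases without a gap, with 282 identical bases and 18 mismatches (94.0% identity). A further pair of windows, FCGR3A (chr1:161550572-161550871, minus strand) and FCGR3B (chr1:161631914-161632213, minus strand, both GRCh38.p14), lay upstream of the former and is shown because its copies differ in length. Capitals mark mismatches and the 8 bases present in FCGR3B alone, and the ends outside the aligned stretch are in lower case.
FCGR3A: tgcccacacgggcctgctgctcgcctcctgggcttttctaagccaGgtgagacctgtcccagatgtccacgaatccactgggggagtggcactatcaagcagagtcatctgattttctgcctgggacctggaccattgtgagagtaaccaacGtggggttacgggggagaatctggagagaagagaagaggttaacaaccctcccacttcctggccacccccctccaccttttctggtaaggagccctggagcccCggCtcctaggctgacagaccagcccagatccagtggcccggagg
FCGR3B: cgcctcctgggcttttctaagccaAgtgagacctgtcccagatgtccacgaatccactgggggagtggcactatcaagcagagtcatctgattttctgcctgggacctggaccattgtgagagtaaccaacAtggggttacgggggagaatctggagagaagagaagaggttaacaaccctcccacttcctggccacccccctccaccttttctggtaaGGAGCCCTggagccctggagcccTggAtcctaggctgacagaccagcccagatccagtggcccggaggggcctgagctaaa

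Here 275 of 279 aligned bases were identical (98.6%), with 4 mismatches and a gap of 8 bases. MboI sites (GATC, which reads the same on both strands) were absent from both windows of the former pair, and the latter held 1 in FCGR3A and 2 in FCGR3B. Among the 12 windows of the members 6 held GATC, against 41.7% of all 35116 promoter windows.

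The FCGR3A and FCGR3B promoters shared at least 1 identical run of 31 bases with each other, and theirs was the one pair of copies in which both members were compared. FCGR2A, HSPA6 and FCGR2B shared no such run with the promoter of any other gene between 20 kb and 2 Mb away. Of all 27305 genes with a window, 2.94% had such a partner. Of the 30 other Fc receptor, Fc receptor-like and heat shock 70 genes on a fixed list, among them FCGR1A, FCER1G, FCRLA and HSPA1A, 25 had a window and 0 had a partner at that distance. Partners nearer than 20 kb were not counted, so the 0 does not show that these genes lack similar copies. FCGR2C and HSPA7 were not compared, so the members without a shared run are not shown to differ from FCGR3A and FCGR3B.

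The loop of about 81 kb joined chr1:161534518-161536723 to chr1:161615908-161618116 (hg19) in both CTCF lists. The starts of its anchors lay 81390 bases apart, the ends 81393 bases and the midpoints 81391.5 bases. In GRCh38 the matching bases of the FCGR3A and FCGR3B promoters lay 81358 bases apart in the pair without a gap and 81355 to 81363 bases apart in the other. The distance between the anchor starts thus differed from that between the promoters by 27 to 35 bases, far less than the 2206 and 2209 bases that the anchors themselves measured. The window held 4 other loops with spans of 75 to 90 kb, and their anchor starts lay further from the promoter distance. The differences were -366 to -358 bases for the loop from chr1:161453521-161457663 to the left anchor, 241 to 249 bases for the loop from chr1:161500047-161504089 to chr1:161581651-161584035, -2655 to -2647 bases for the loop from the right anchor to chr1:161694616-161697138, and 7188 to 7196 bases for the loop from chr1:161493100-161494330 to chr1:161581651-161584035. For the loops from chr1:161453521-161457663 and from chr1:161500047-161504089 the difference was also smaller than the length of either anchor. A start distance near that of the promoters was thus not particular to the loop of about 81 kb. The distances come from different builds, so the comparison holds only if the assembly between the copies is the same in both. It also needs the copies to be as far apart at the anchors as at the promoters, which was not tested. In the pair with a gap that distance changed with position, from 81355 to 81363 bases. The promoters were not placed relative to the anchors.

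The start and end distances differ by 3 bases because the anchors differ by 3 bases in length, so the length is the same fact and no further match. Lengths were equal to within 3 bases for 0.399% of the loops in the wild-type CTCF list and 0.532% of those in the ZNF143KO CTCF list, where median length differences were 595 and 633 bases. The tolerance was set to the value seen in this loop, whose anchors have the same edges in both CTCF lists, and the shares are given as background. In the RAD21 lists the anchors had the same starts but ended later, at 161537657 and 161619486, and measured 3140 and 3579 bases. Their ends lay 81829 bases apart, 466 to 474 bases more than the promoters. Whether reads from one copy had been placed at the other was not tested, since the lists hold no reads, no mapping quality and no read length.

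**Figure D1:**
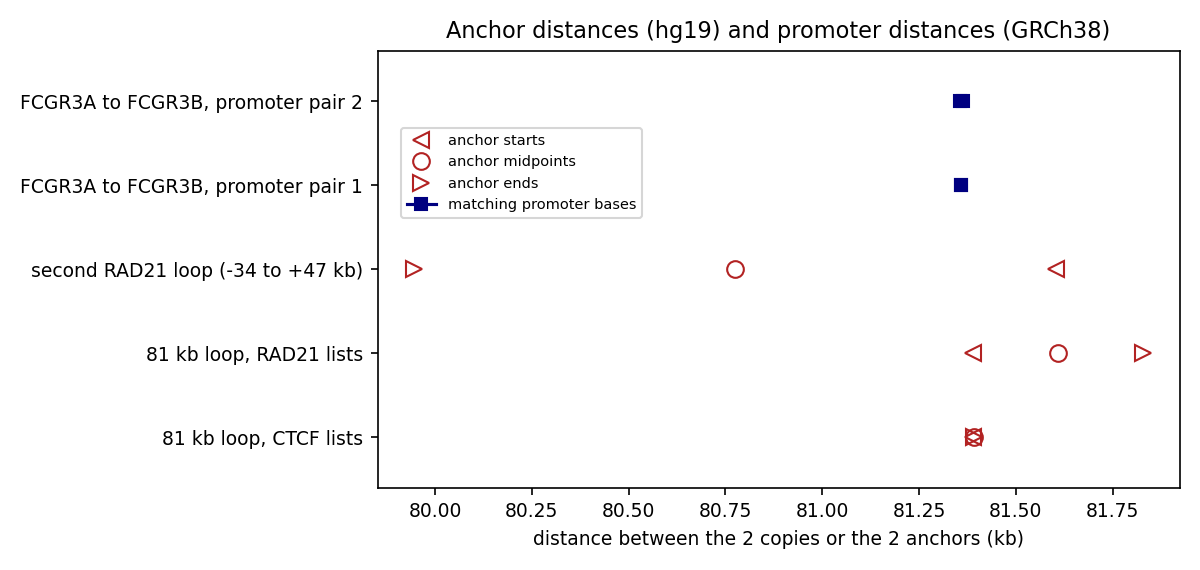
Distance between the anchor starts, midpoints and ends of the loop of about 81 kb (CTCF and RAD21 lists, hg19) and of a second RAD21 loop, beside the distance between matching promoter bases of FCGR3A and FCGR3B (GRCh38), in kb. The 3 CTCF distances fall together at 81390 to 81393 bases, next to the promoter distances of 81355 to 81363 bases. The ends of this loop in the RAD21 lists lie 81829 bases apart. The second loop has starts 81604 and ends 79946 bases apart.

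The loop of about 81 kb had a count of 124 (Poisson 95% interval 103 to 148) in the wild-type CTCF list and 102 (83.2 to 124) in the ZNF143KO CTCF list. The RAD21 counts were 117 (96.8 to 140) in wild-type and 116 (95.9 to 139) in ZNF143KO cells. The 4 intervals overlapped. The loop was not listed for ZNF143 in wild-type cells or in CTCF-AID cells at 0 h or 24 h, and a loop with fewer than 2 counts is in no list. It ranked 8 of 19313 wild-type CTCF loops and 12 of 16788 wild-type RAD21 loops by count. In both ZNF143KO lists it ranked 1, ahead of 99 for CTCF and 78 for RAD21.

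The ratio of the ZNF143KO to the wild-type count was 0.823 (exact binomial 95% interval 0.627 to 1.08) for CTCF and 0.991 (0.760 to 1.29) for RAD21. The totals of the whole lists had ratios of 0.573 and 0.450. Divided by these totals, the loop held 15.4 of every 10000 counts for CTCF in wild-type and 22.1 in ZNF143KO cells, a ratio of 1.44. For RAD21 the shares were 15.7 and 34.7 of every 10000, a ratio of 2.20. Both unscaled intervals included equal counts, so neither unscaled ratio has a clear direction. Whether the count looks kept or raised thus depends on whether counts are divided by the list total. That total adds up the listed loops, and the sequencing depth is unknown. In these comparisons the layout of the list, tabs in ZNF143KO and spaces in wild type, changed together with genotype, and the effects of list making and deletion cannot be told apart.

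Since the loop was chosen for this ratio, the following counts over other loops are background. Of the wild-type loops found again in ZNF143KO cells, 48.2% for CTCF and 42.3% for RAD21 had at least their wild-type count. The loop of about 81 kb did so in neither comparison. Most loops have counts of 2 to 4, and among those with a wild-type count of 10 or more the shares were 4.21% and 3.06%. A count of at least 0.8 times the wild-type count, a limit set after the values were seen, was met by 7.88% of 1295 CTCF and 5.52% of 1251 RAD21 loops with 10 or more counts, this loop among them in both cases.

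Among loops of similar strength the ratios were lower. The other 11 CTCF loops with 100 or more wild-type counts had ratios from 0.142 to 0.467 (median 0.204), and the other 13 RAD21 loops ran from 0.172 to 0.495 (median 0.236). At 40 or more counts, 1 of 84 other CTCF loops had a higher ratio, on chromosome 12 from 54095022 to 54138325 (46 counts in wild-type and 41 in ZNF143KO cells). Of 98 other RAD21 loops 1 had a higher ratio, on chromosome 1 from 155561136 to 155684331 (45 and 59 counts). The plot of loop counts with and without ZNF143 shows the FCGR loop near the line of equal counts, to the upper right of the bulk.

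**Figure D2:**
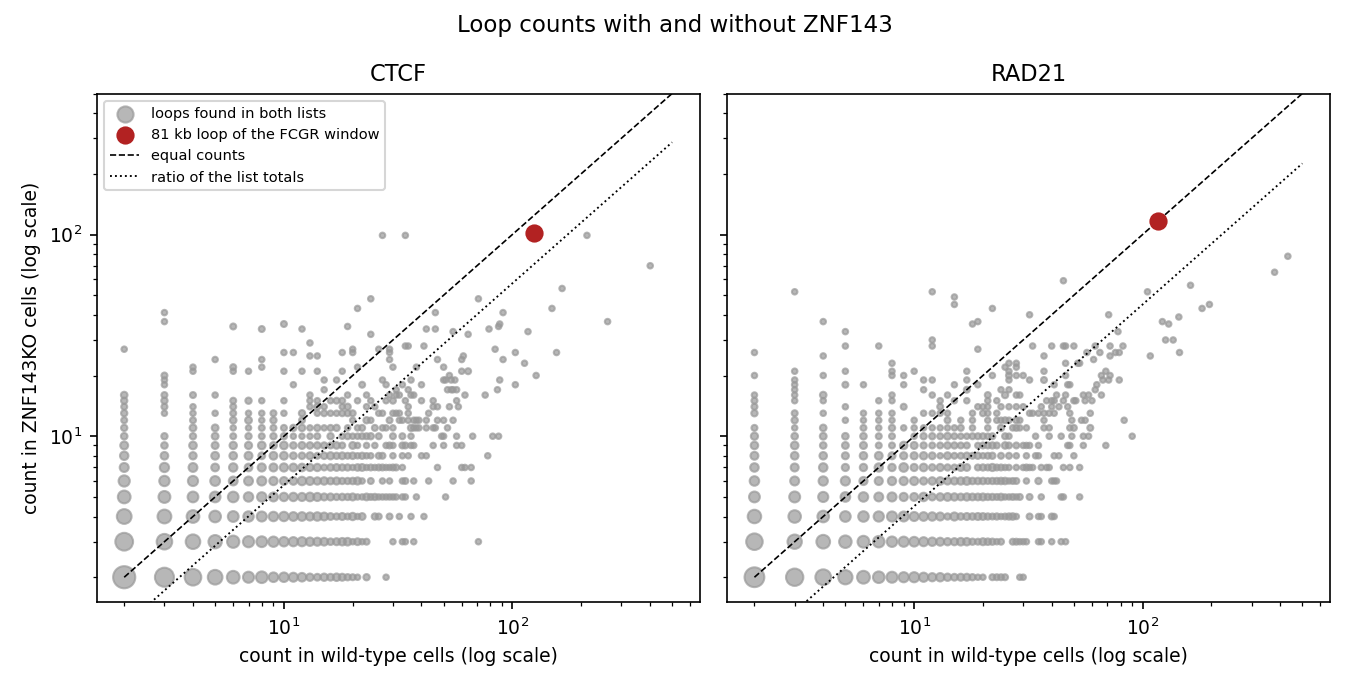
Count in ZNF143KO against wild-type cells for each wild-type loop found again (CTCF left, RAD21 right; log axes; point area grows with the number of loops). The FCGR loop (red) lies at 124 and 102 for CTCF and at 117 and 116 for RAD21, above the dotted ratio of the list totals, while the other loops with 100 or more wild-type counts have ratios of at most 0.495.

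The loop held nearly all the counts of its own anchors. In the wild-type CTCF list it made up 124 of 128 counts at the left anchor (96.9%) and 124 of 132 at the right anchor (93.9%). For the other 61 CTCF loops with 50 or more counts the lower of the shares at the 2 anchors ran from 12.6% to 96.7% (median 48.4%), and 2 of them exceeded 93.9%. In the wild-type RAD21 list the shares were 90.7% and 96.7%, and 0 of 58 other loops had a lower share above 90.7%. In ZNF143KO cells they were 93.6% and 98.1% for CTCF, above all 3 other loops with 50 or more counts, and 94.3% and 95.9% for RAD21, where 1 of 5 others was higher.

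The window held few other counts, but not few loops. Of 996 windows of 250 kb tiling chromosome 1, the median one held 1 loop in each CTCF and RAD21 list. As many loops as here, or more, were held by 182 for wild-type CTCF (7 loops here) and 122 for wild-type RAD21 (8). For ZNF143KO cells the numbers were 83 for CTCF (9) and 85 for RAD21 (7). Of the 42 listed loops of the FCGR window 27 had a count of 2, 11 a count from 3 to 14, 0 a count from 15 to 100 and 4 a higher one, the loop of about 81 kb in 4 lists. Of the 30 distinct loops 21 were in 1 list and 9 in more than 1. The loops had 17 anchors, 8 of them with a midpoint inside the window. Of the 11 anchors held by more than 1 list, 7 had the same start and end in each of those lists and 4 did not, the anchors of the loop of about 81 kb among the latter.

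**Figure D3:**
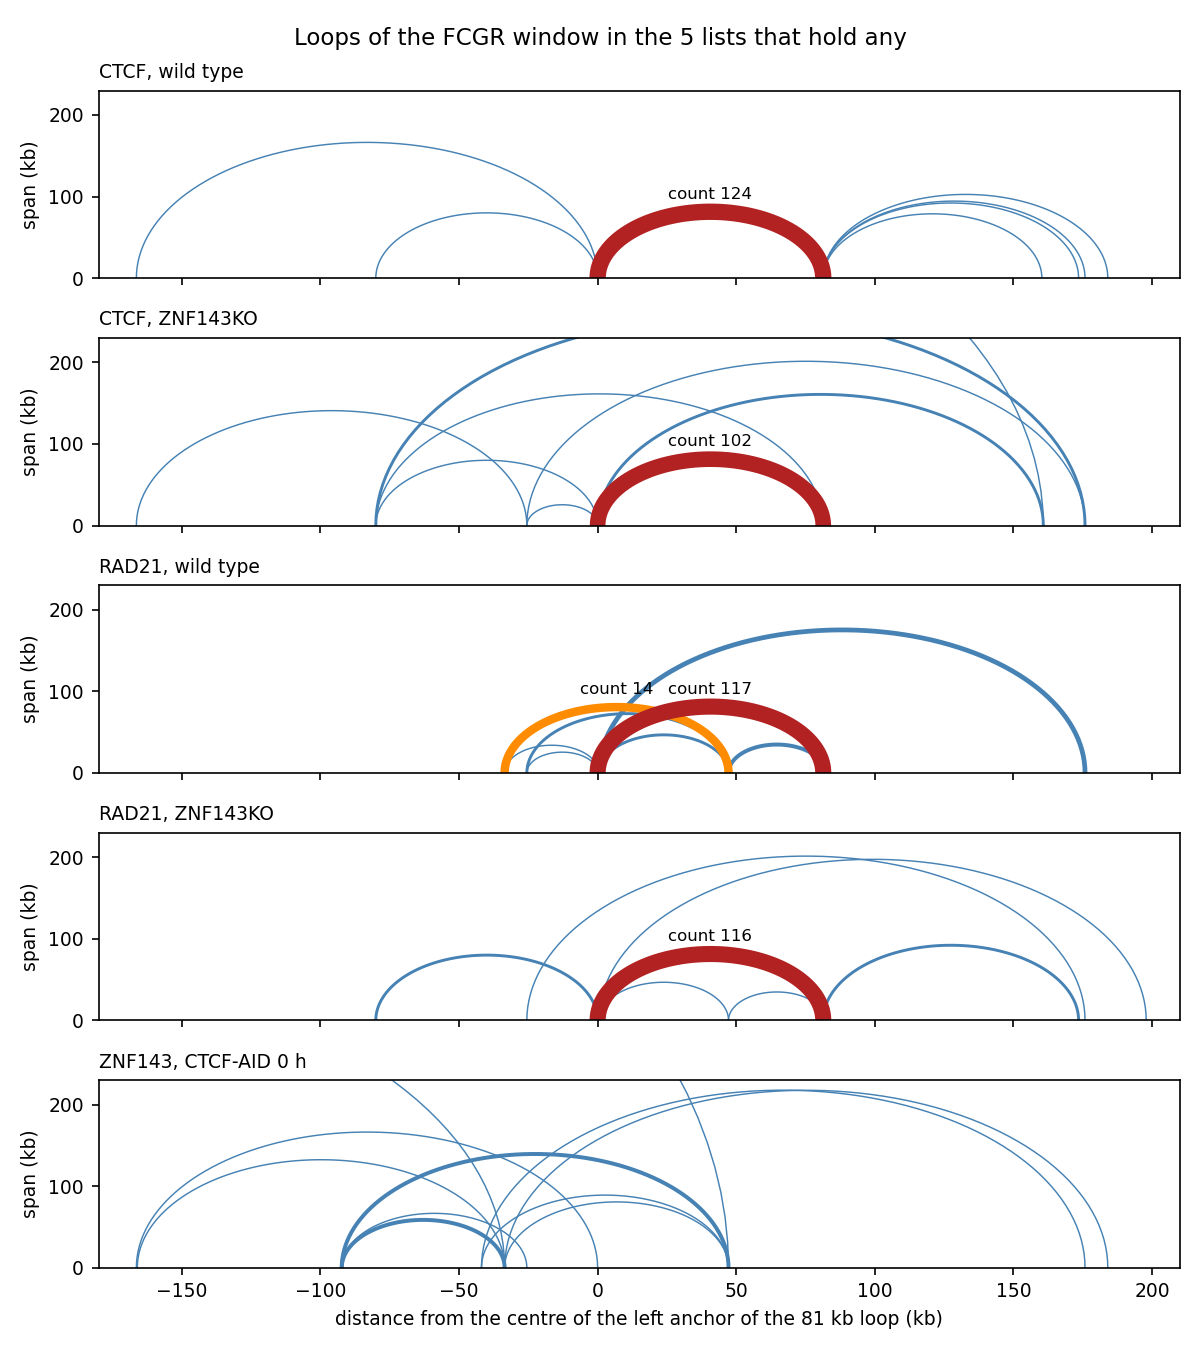
Loops of the window in the 5 lists that hold any, drawn from anchor midpoint to anchor midpoint, with the height giving the span in kb and the line width growing with the count (loops longer than the panel are cut off). The arc of about 81 kb has counts of 124, 102, 117 and 116 in the CTCF and RAD21 lists and is missing from the ZNF143 list, where the highest count is 4.

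In wild-type cells the CTCF list had 7 loops in the window, and the 6 besides the loop of about 81 kb each had a count of 2. They joined the left anchor to chr1:161368574-161369866 and chr1:161453521-161457663, upstream, and the right anchor to chr1:161694616-161697138 and sites beyond the window. In ZNF143KO cells there were 9 CTCF loops, and the 8 others had counts of 2 or 3. The highest of them joined the left anchor to chr1:161694616-161698200 (161 kb) and chr1:161453521-161457663 to chr1:161710734-161712174 (256 kb), with 3 counts each. Without the loop of about 81 kb the CTCF counts summed to 12 in wild-type and 18 in ZNF143KO cells, a ratio of 1.50. The lists shared 1 of these loops, with 2 counts in each, and all had 2 or 3 counts, so the sums depend on which loops passed the minimum of 2 and the ratio is no fold change.

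The wild-type RAD21 list had 8 loops in the window. After the loop of about 81 kb the highest count, 14, belonged to a loop from chr1:161500047-161504089 to chr1:161581651-161584035, whose anchor starts lay 81604 bases apart and whose midpoints lay 80.8 kb apart. This second loop had a count of 2 in CTCF-AID cells at 0 h and was in none of the other lists, ZNF143KO RAD21 among them. Its anchor starts differed from the promoter distance by 241 to 249 bases, but its ends, 79946 bases apart, differed by -1417 to -1409 bases, the left anchor being the longer. The third RAD21 loop joined the left anchor of the loop of about 81 kb to chr1:161710734-161712174 with 5 counts. In ZNF143KO cells 7 RAD21 loops were listed, and the 6 others had counts of 2 or 3. The highest of these joined chr1:161453521-161457663 to the left anchor of the loop of about 81 kb, and its right anchor to chr1:161708066-161710194, with 3 counts each. The former was also in both CTCF lists, with 2 counts in each.

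Without the loop of about 81 kb the RAD21 counts of the window summed to 33 in wild-type and 14 in ZNF143KO cells, a ratio of 0.424. The 7 wild-type and 6 ZNF143KO loops had 2 in common, and 14 of the 33 counts came from the second loop. Without it the sums were 19 and 14, a ratio of 0.737, so this ratio rests on 1 loop and, as for CTCF, is no fold change. With the loop of about 81 kb the window summed to 150 and 130 counts for RAD21 (0.867, 0.680 to 1.10) and to 136 and 120 for CTCF (0.882, 0.684 to 1.14). Divided by the list totals, these ratios were 1.93 for RAD21 and 1.54 for CTCF. The loop of about 81 kb alone made up 91.2% and 85.0% of the window's CTCF counts in wild-type and ZNF143KO cells, and 78.0% and 89.2% of its RAD21 counts.

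Around the window, loops with both anchor midpoints within 1 Mb of its edges, those of the window left out, had CTCF counts of 78 in wild-type and 61 in ZNF143KO cells, a ratio of 0.782 (0.550 to 1.11). For RAD21 the counts were 50 and 33, a ratio of 0.660 (0.412 to 1.04). Both intervals overlapped that of the loop of about 81 kb and also held the ratios of the list totals, 0.573 and 0.450, so these sums do not tell the one from the other, and the highest count among these loops was 10. Copy number of the region was not measured, and its part in the counts was not tested.

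**Figure D4:**
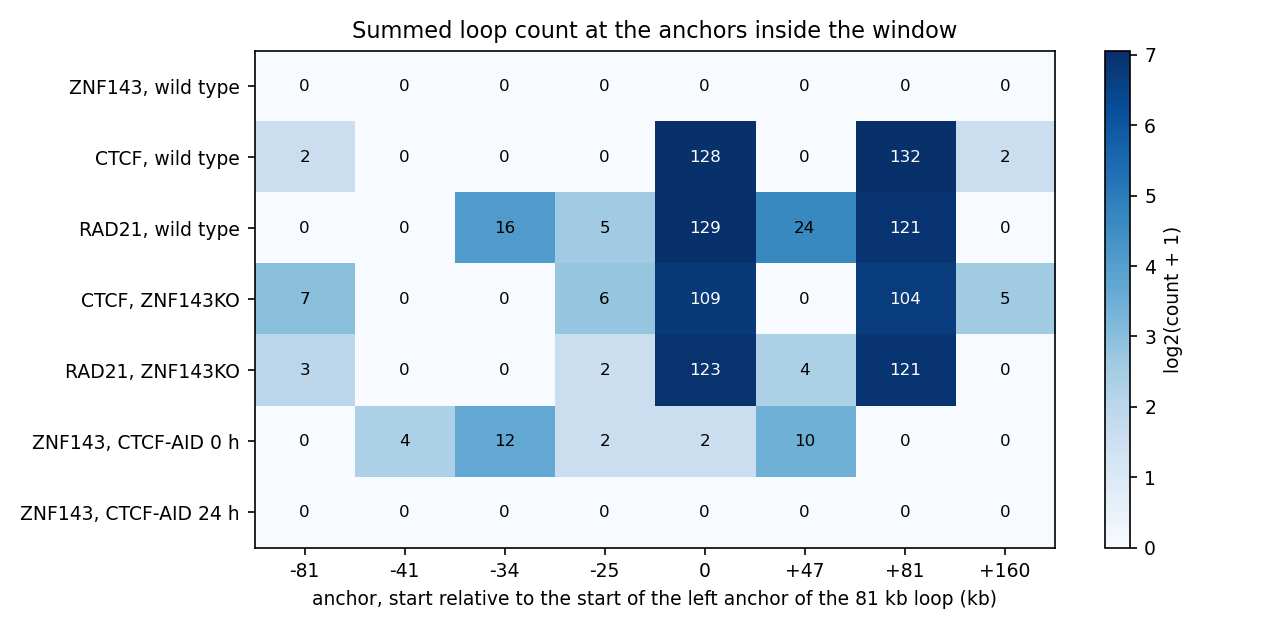
Summed loop count at each of the 8 anchors inside the window (columns, start relative to the left anchor of the loop of about 81 kb, in kb) in each of the 7 lists (rows), with colour on a log2(count + 1) scale. The anchors at 0 and 81 kb hold 104 to 132 counts in the CTCF and RAD21 lists, and no other anchor exceeds 24.

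ZNF143 loops in the window were listed in CTCF-AID cells without auxin alone. There were 0 of 11981 loops in wild-type cells, 11 of 40405 with a summed count of 26 (17.0 to 38.1) at 0 h, and 0 of 20587 at 24 h. Empty windows were common: of 996 windows of 250 kb tiling chromosome 1, 64.8% held no loop of the wild-type ZNF143 list and 54.5% none of the 24 h list. The absence of loops is therefore not set apart from these lists as a whole. These shares cover the whole chromosome, where 39.2% of windows held no wild-type CTCF loop and 39.3% no wild-type RAD21 loop. Windows that hold such loops, as this one does, were not compared on their own. At 0 h all 11 loops had even counts, 9 with 2 and 2 with 4. Counts were even for 89.5% of all loops of this list and 86.8% of those of the 24 h list, against 68.1% to 74.6% in the other 5. Whether this list has the scale of the others is not given in the sources used here, and the interval of 17.0 to 38.1 holds only if each count is 1 event. At 0 h 239 of the 996 windows held as many loops or more. Since loops under 2 counts are not listed, no fold between 0 h and 24 h is given.

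Of the 11 ZNF143 loops at 0 h, 1 used the left anchor of the loop of about 81 kb, with 2 counts, and 0 used its right anchor. The loops with 4 counts joined chr1:161442610-161444009, just outside the window, to chr1:161500047-161504089 (58.8 kb) and to chr1:161581651-161584035 (140 kb), the anchors of the second RAD21 loop. Those anchors held 12 and 10 counts in all. The third loop by the rule joined the same outside site to chr1:161509363-161510800 (66.8 kb) with 2 counts. In the wild-type ZNF143 list the nearest anchor lay 412 kb from the left and 493 kb from the right anchor of the loop of about 81 kb. In the 24 h list, also without a loop in the window, these distances were 183 and 102 kb. In the 0 h list an anchor overlapped the left anchor, and the nearest to the right anchor lay 34.2 kb away.

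The loops outside the window most like it in counts had lower ratios of ZNF143KO to wild type. Over the 7 lists, with unlisted loops set to 0, the nearest of 19306 other wild-type CTCF loops lay at a Euclidean distance of 3.25 in log2(count + 1), against a median of 12.1. It joined chromosome 16, 55498344 to 55499850, to 55576626 to 55578893, with wild-type counts of 88 for CTCF and 108 for RAD21 and ZNF143KO counts of 19 and 25. The next, at 3.30, joined chromosome 11, 87063220 to 87064616, to 87131210 to 87133368 (113 and 144 in wild-type, 23 and 39 in ZNF143KO cells). The third, at 3.49, joined chromosome 5, 140556278 to 140558282, to 140592618 to 140594362 (41 and 40 in wild-type, 28 in both ZNF143KO lists). The first and the third were in no ZNF143 list. The distance is a description over 7 libraries that include those used to choose the loop.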

How the data were processed

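HiChIP loops were measured in 7 libraries of HEC-1-B cells and derived lines, 1 per group, with groups taken from the sample titles. The authors deposited 1 loop list per library, with 2 anchors and a whole-number count per loop. The deposited counts were used as they stand, unscaled, from 2 upwards, and loops with fewer are not listed. The submitters' processing notes name HiC-Pro and the build hg19. The loop caller, aligner and filters are not given in the sources used here. Positions are counted from 1.

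Listed totals ran from 33460 to 143119 counts. Loops of different lists were matched when the anchors of one, extended by 5 kb, overlapped both anchors of the other by at least 1 base, and the highest count was taken, so neighbouring loops can share a match. Distinct loops in the window were told apart by overlap without extension. Matching was tested on simulated loops with widely spaced starts and shifts smaller than the extension. Matches shared by neighbouring loops were not simulated. Ratios have exact binomial and counts exact Poisson intervals at 95%. Promoters were aligned with Biopython 1.88 (local, match 1, mismatch -2, gap opening -4, extension -1), and other values were computed in Python 3.11.15 with pandas 2.3.3 and scipy 1.17.1.

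The window, members and lists were chosen with earlier results of these data known. Named were the 6 genes, a fixed list of related genes, the loop of about 81 kb, the 3 loops of the window with the highest count in each list (ties to the shorter span) and the 3 loops of the wild-type CTCF list most like the loop of about 81 kb. Counts per gene, shared anchor sequence and unique positions in anchors were planned but not computed, because no sequence or annotation of hg19 was used. Distances between gene copies were taken from RefSeq promoter windows of GRCh38.p14 instead. Alternatives covered membership of the window, minimum count, extension, scaling by list total and the loops entering each sum.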

Additional observations from a re-analysis of the deposited data

How the results depend on the processing

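Of 42 combinations of a result and an alternative, 23 gave the same value within its interval or 1.5 times its count, 14 moved and 5 passed to the other side of 1. The reported ratios behind those 5 all had intervals that held 1, so none had a clear direction to begin with. Dividing counts by the list total turned the ratio of ZNF143KO to wild type for the loop of about 81 kb to 1.44 (CTCF) and 2.20 (RAD21), and for the summed window to 1.54 and 1.93. Leaving that loop out gave 1.50 for CTCF and 0.424 for RAD21, or 0.737 for RAD21 without the second loop too, an alternative added after seeing the data. Anchor extensions of 0 and 10 kb and the sum of matching loops left the ratios of the loop at 0.823 and 0.991. With both anchors in the window 3 wild-type and 5 ZNF143KO CTCF loops, 4 ZNF143KO RAD21 loops and 2 ZNF143 loops at 0 h were left, and with loops of 3 or more counts alone the numbers were 1, 3, 3 and 2. The share of loops with a kept or raised count fell to 4.21% (CTCF) and 3.06% (RAD21) at 10 or more wild-type counts and was 44.6% and 40.6% at spans of 70 to 95 kb. The anchor starts exceeded the distance of the first promoter pair by 32 bases, and the RAD21 anchor ends by 471 bases; these distances, the limit of 0.8 and the length tolerance were added after seeing the data. The cause of these changes was not tested beyond the loops each alternative removes. No paired analysis was possible because each group had 1 library. Depth and mapping quality are unknown, and loops under 2 counts are not listed.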
